A study of Mus musculus with 15 samples.

Results

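Endothelial cells line the blood vessels of the trigeminal ganglion (TG), the sensory ganglion that holds the cell bodies of the corneal nerves. Of the 55573 genes counted in 15 mouse TG, 10 were taken here by their gene symbols because they are widely used to identify endothelial cells: Pecam1, Cdh5, Cldn5, Tie1, Tek, Emcn, Esam, Egfl7, Vwf and Sox17. All 10 were in the table once each, and all 10 were among the 16567 genes that passed the filter on low counts. The mice were male CD1 animals, bought at 10 weeks of age, whose right cornea had lost its epithelium and anterior stroma inside a 2-mm trephine mark. After this injury 5 mice received vehicle, 5 received resolvin D6 (RvD6, RvD6-standard in the labels) and 5 received its stereoisomer (RvD6si, RvD6-isomer in the labels), 3 times a day for 12 days, and the TG of the injured side was sequenced. All 3 groups carried the injury, so no value below compares injured with uninjured ganglia, and no dose of the lipids is given in the sources used here. RvD6 and RvD6si are lipid mediators derived from docosahexaenoic acid that differ in stereochemistry.

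Endothelial cells hold on to each other through adherens and tight junctions, which set how leaky a vessel is, and in nerve tissue these junctions form part of the blood-nerve barrier. The angiopoietin receptor Tek with its relative Tie1 keeps vessels quiescent, and Sox17 is a transcription factor of arterial endothelium. Several of the 10 genes are also made outside vessels, since Vwf, Pecam1 and Esam are found in megakaryocytes or platelets and Pecam1 also on leukocytes. In RNA from whole ganglia, fewer endothelial cells and less RNA per cell cannot be told apart.

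Total counts ran from 4125962 to 9903396 per library, with a median of 7756538. The medians of the groups were 9147139 (vehicle), 7235362 (RvD6) and 6862705 (RvD6si). RvD6si replicate 15 had the fewest counts and stood apart from the other RvD6si libraries. Its summed normalized count was 14819 for 11 markers of bone marrow granulocyte precursors, where the RvD6si median was 537, and 86215 for 7 erythroid markers, where the median was 9752. Markers of sensory neurons summed to between 48185 and 88120 across the libraries, and none of the 8 markers was at 0.

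The promoters with a window upstream of the annotated gene start were those of Cldn5, Tek and Emcn, and they are shown because they hold the regulatory sequence next to 3 of the genes compared. RefSeq (GRCm38.p6) gave a promoter for 5 of the 10 genes. Each line below runs 5′ to 3′ on the plus strand and ends at the base before the gene's first annotated base, and capitals mark GGAA, the core letters bound by ETS factors, on either strand (TTCC is its reverse complement). The windows are chr16:18776597-18776846, chr4:94739039-94739288 and chr3:137340828-137341066, and no exon of any counted gene lay in them.
Cldn5: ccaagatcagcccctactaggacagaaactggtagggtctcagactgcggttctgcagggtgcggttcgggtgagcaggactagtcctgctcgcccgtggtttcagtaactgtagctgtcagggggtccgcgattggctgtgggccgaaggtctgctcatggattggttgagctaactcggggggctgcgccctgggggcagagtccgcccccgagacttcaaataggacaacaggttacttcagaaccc
Tek: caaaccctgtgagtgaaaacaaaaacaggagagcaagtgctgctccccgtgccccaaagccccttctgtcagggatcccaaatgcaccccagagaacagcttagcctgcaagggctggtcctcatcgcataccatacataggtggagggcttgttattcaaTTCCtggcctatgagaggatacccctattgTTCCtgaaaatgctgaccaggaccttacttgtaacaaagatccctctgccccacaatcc
Emcn: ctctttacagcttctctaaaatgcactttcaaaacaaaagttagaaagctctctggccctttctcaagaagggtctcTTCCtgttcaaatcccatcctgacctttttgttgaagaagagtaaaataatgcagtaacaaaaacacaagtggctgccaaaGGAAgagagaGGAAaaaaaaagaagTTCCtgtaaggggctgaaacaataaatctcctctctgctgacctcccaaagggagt
GGAA was found 0 times in the Cldn5 window, 2 times in that of Tek and 4 times in that of Emcn, whereas 93.4% of 32851 promoters held it, with a median of 3 matches. ACAAT, a core that SOX factors bind, was found 0, 2 and 1 times in the same order, and 27.7% of all promoters held it. GC content was 59.6% for Cldn5, 51.2% for Tek and 40.6% for Emcn. A match describes the letters only.

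Levels of different genes were compared per exonic length, as TPM (read counts divided by exonic length and then scaled to the same total in every library) computed from the deposited counts. Cldn5, the tight junction protein of barrier endothelium, was the highest of the 10 at 140 ± 32.1 TPM (SD, n = 15), above 94.1% of all genes tested. Esam, an adhesion molecule of endothelial junctions, followed at 35.0 ± 11.6 TPM. Egfl7, a protein that endothelial cells secrete, reached 16 ± 2.85 TPM, and Emcn, a sialomucin of capillaries and veins, reached 9.26 ± 2.84 TPM. These genes kept their order in nearly all libraries: Cldn5 exceeded Esam in 15 of 15, Esam exceeded Egfl7 in 15 of 15, and Egfl7 exceeded Emcn in 14 of 15.

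The remaining 6 genes were low. Sox17 averaged 4.97 TPM, Pecam1 4.87 TPM, Tek 2.89 TPM, Cdh5 2.24 TPM, Tie1 2.20 TPM and Vwf 1.43 TPM, where the median of all genes tested was 10.5 TPM. Neighbours in this order differed by less than 1 SD over the 15 libraries, although Pecam1 exceeded Tek in 13 of 15. Cdh5, which encodes VE-cadherin, and Vwf, the clotting glycoprotein that endothelium stores, are defining markers of endothelial cells, and both were detected in every library at raw counts of 9 to 160 and 27 to 155.

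**Figure D1:**
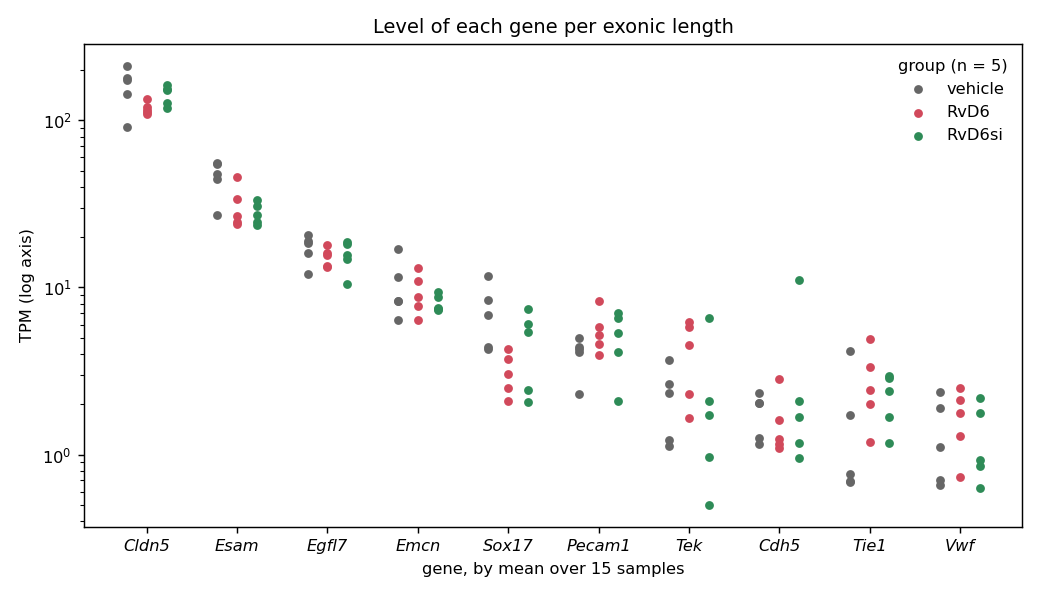
TPM, the level per exonic length, on a log axis for each of the 10 genes, 1 point per library, coloured by group (n = 5 each). Cldn5 lies above every other gene with a mean of 140, and the genes from Sox17 to Vwf, at means of 4.97 to 1.43, overlap.

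The question of the comparisons was whether either lipid, given to the injured cornea, went with a different level of these genes in the ganglion, and whether the lipids differed from each other. Esam was the gene furthest from vehicle after RvD6si, at 217 ± 34.2 normalized counts (SD, n = 5) against 409 ± 105, but the main test called no gene of the 10 in any comparison. edgeR's quasi-likelihood test with Benjamini-Hochberg adjustment called 0 of 10 between RvD6si and vehicle, where it called 0.67% of all genes, 0 of 10 between RvD6 and vehicle, where it called 0.0%, and 0 of 10 between RvD6si and RvD6, where it called 0.235%. At an unadjusted p below 0.05 there were 2 genes for RvD6si against vehicle (Esam and Sox17, both lower), 3 for RvD6 against vehicle (Sox17, Esam and Cldn5, all lower) and 0 between the lipids, and the shares of all genes at that level were 16%, 13.6% and 8.82%. Genes lower at that level made up 7.3% for RvD6si and 5.99% for RvD6. DESeq2 gave 1 call in all, Esam in RvD6si against vehicle (adjusted p = 0.006). Of the genes to which it gave an adjusted p, it called 8.13% of 11321 in that comparison. It called 1.92% of 19190 for RvD6 and 0.936% of 19769 between the lipids. It gave no adjusted p for Cdh5 in any comparison, nor for Tie1 and Tek in RvD6si against vehicle.

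For none of the 10 genes were the 5 values of one group all above or all below those of another, in any of the comparisons. Over all genes tested, such separation was seen in 4.88% for RvD6si against vehicle, 3.72% for RvD6 against vehicle and 1.74% between the lipids. The median log2 fold change of the 10 genes was -0.29 for RvD6si against vehicle, with 7 estimates below 0, and the median of all genes was 0.02. For RvD6 against vehicle the median was -0.12 with 6 below 0, beside 0.02 for all genes, and for RvD6si against RvD6 it was -0.36 with 7 below 0. Estimates below 0 made up 48.8%, 47.8% and 50.5% of all genes. The comparisons with vehicle share the same 5 control libraries.

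**Figure D2:**
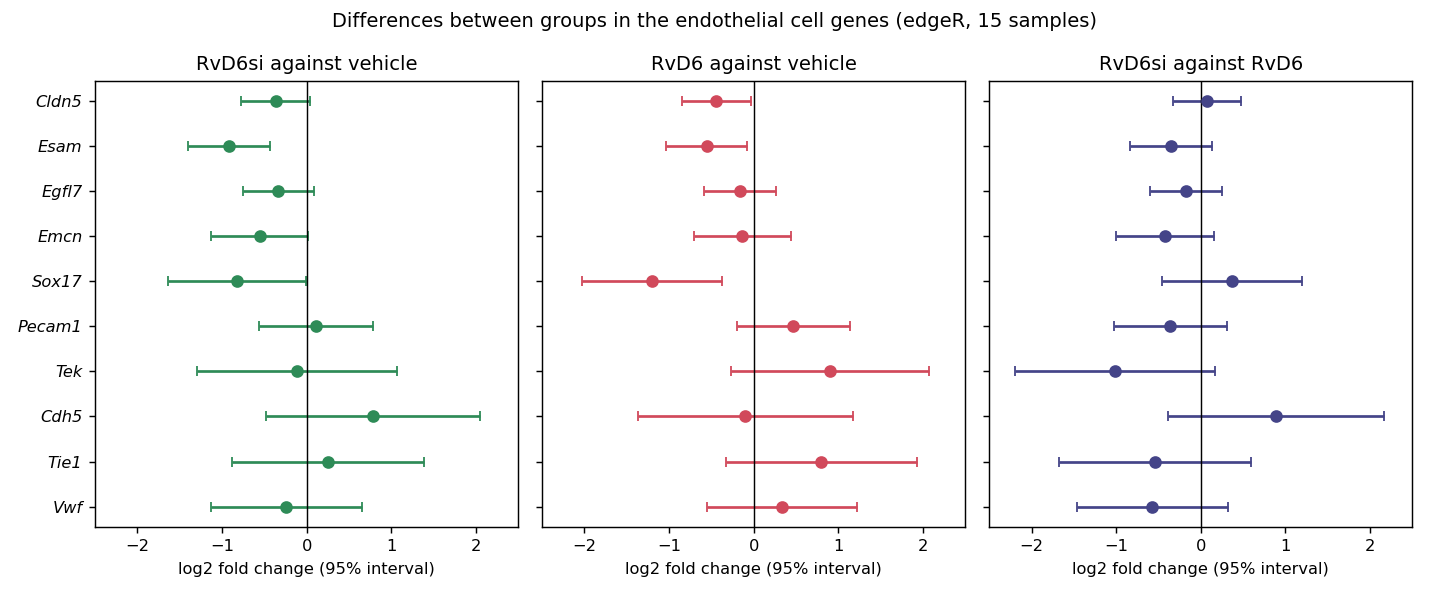
Log2 fold change of each gene (points) with its 95% interval (bars) from edgeR on 15 libraries, in 3 panels: each lipid against vehicle, then RvD6si against RvD6. The intervals of Esam and Sox17 lie below 0 in both comparisons with vehicle and that of Cldn5 in the RvD6 comparison, before adjustment for the number of genes tested, and every interval between the lipids includes 0.

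Among the junction and adhesion genes, Esam (chr9:37528078-37538319, plus strand, ENSMUSG00000001946.14) held 229, 469, 453, 489 and 403 normalized counts in vehicle replicates 1 to 5. It held 428, 202, 228, 301 and 240 in RvD6 replicates 6 to 10 and 200, 264, 183, 243 and 197 in RvD6si replicates 11 to 15. All 5 RvD6si libraries lay below the vehicle mean, and vehicle replicate 1 lay among them, so the groups overlapped by that library. The log2 fold change for RvD6si was -0.91 ± 0.23 (SE, adjusted p = 0.0653, edgeR), a ratio of 0.531 with a 95% interval of 0.379 to 0.743. For RvD6 it was -0.56 ± 0.23 (adjusted p = 0.306, edgeR). Between the lipids Esam differed by -0.36 with an interval of -0.84 to 0.13 on the log2 scale. Without RvD6si replicate 15, the RvD6si difference was -0.88 (adjusted p = 0.0997, edgeR). Esam passed the threshold for RvD6si under DESeq2 on the vehicle and RvD6si libraries alone (adjusted p = 0.00229, 8.67% of all genes called) and under edgeR on genes with at least 10 counts in every library (adjusted p = 0.0405, 2.6% called).

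Cldn5 (chr16:18776847-18778262, plus strand), whose upstream window held no GGAA, had 380, 595, 838, 766 and 940 normalized counts in the vehicle libraries. The RvD6 libraries held 502, 498, 516, 592 and 508, and the RvD6si libraries 548, 460, 591, 633 and 502. Both treated groups lay within the vehicle range and varied far less than it did, with coefficients of variation of 31.3% (vehicle), 7.49% (RvD6) and 12.6% (RvD6si), where counting alone gives 3.46%, 4.51% and 4.49%. The log2 fold change was -0.44 ± 0.19 for RvD6 (adjusted p = 0.326, edgeR) and -0.37 ± 0.19 for RvD6si (adjusted p = 0.364). Between the lipids it was 0.07, with an interval of -0.33 to 0.48, the narrowest of the 10 genes.

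Pecam1 (CD31, chr11:106654217-106750628, minus strand) held 78.6, 41.8, 90.7, 97.4 and 80.6 normalized counts after vehicle, 117, 83.8, 79.9, 161 and 102 after RvD6, and 112, 35.9, 90.4, 112 and 71.5 after RvD6si. All 5 RvD6 libraries were above the vehicle mean of 77.8, but the groups overlapped and the difference was 0.47 ± 0.32 (log2, SE, adjusted p = 0.549, edgeR). Cdh5 (chr8:104101625-104144511, plus strand) held 28.8, 24.9, 16, 26.6 and 16.4 after vehicle, 39.1, 13.5, 16.8, 21.1 and 15.1 after RvD6, and 10.2, 128, 23.7, 13.4 and 19.5 after RvD6si. The RvD6si estimate, 0.79 ± 0.60 (adjusted p = 0.56, edgeR), rested on replicate 12 alone, and without that library it was -0.43 (adjusted p = 0.73).

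Among the receptors, Tek (chr4:94739289-94874976, plus strand), the angiopoietin receptor, held 36.8, 32.0, 17.7, 54.1 and 18.1 normalized counts after vehicle, 35.2, 62.2, 25.2, 90.5 and 85.6 after RvD6, and 79.1, 27.2, 6.39, 12.4 and 22.8 after RvD6si. It had the widest gap between the lipids, -1.01 for RvD6si against RvD6 with an interval of -2.19 to 0.17 (log2, adjusted p = 0.636, edgeR). Without RvD6si replicate 11 it was -1.79 (adjusted p = 0.327). Tie1 (chr4:118471191-118490061, minus strand) held 10.1, 24.9, 11.2, 11.8 and 64.2 after vehicle, 32.0, 17.1, 53.2, 37.2 and 75.5 after RvD6, and 36.1, 16, 31.9, 22.8 and 40.6 after RvD6si. Vehicle replicate 5 was the only vehicle library above 24.9, and the estimate for RvD6 was 0.80 ± 0.54 (adjusted p = 0.545, edgeR). Without that library it was 1.55 (adjusted p = 0.32). Of the angiopoietins, the ligands of Tek, 3 of 3 were tested and edgeR called 0 in each comparison, as did DESeq2. Angpt1, which activates Tek, averaged 21.9 normalized counts after RvD6si and 46.7 after RvD6, a difference of -1.08 on the log2 scale. Its unadjusted p was 0.0356 and its adjusted p 0.515 in edgeR. This was the only unadjusted p below 0.05 in this list, where 4.64% of all genes were lower at that level between the lipids.

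Among the surface and secreted proteins, Emcn (chr3:137341067-137432185, plus strand) held 185, 132, 304, 107 and 141 normalized counts after vehicle, 194, 101, 136, 219 and 149 after RvD6, and 104, 109, 138, 129 and 112 after RvD6si. The RvD6si libraries spanned a narrow band, 104 to 138, which also held 2 of the vehicle libraries (107 and 132), and the difference was -0.56 ± 0.28 (adjusted p = 0.332, edgeR). Egfl7 (chr2:26580014-26593120, plus strand) was the steadiest of the 10, with a coefficient of variation of 19% over all libraries. Its group means were 190 ± 33 (vehicle), 172 ± 25.3 (RvD6) and 151 ± 32.1 (RvD6si), and the adjusted p-values against vehicle were 0.777 for RvD6 and 0.441 for RvD6si in edgeR. Exons of 4 other genes, the microRNA genes Mir126a and Mir126b among them, overlap 11.2% of the exonic bases of Egfl7, and reads in such bases were left uncounted by the authors' settings.

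Vwf (chr6:125546774-125686679, plus strand) had the lowest level per length. It held 112, 89.0, 35.3, 35.4 and 55.9 normalized counts after vehicle, 38.3, 100, 67.2, 88.0 and 125 after RvD6, and 35.0, 96.6, 40.2, 27.9 and 79.6 after RvD6si. Each group held both low and high libraries, and the adjusted p-values against vehicle were 0.777 for RvD6 and 0.834 for RvD6si in edgeR.

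Sox17 (chr1:4490931-4497354, minus strand), the single transcription factor among the 10, held 62.0, 95.2, 185, 64.0 and 126 normalized counts in the vehicle libraries. It held 46.9, 35.1, 57.4, 63.2 and 31.2 after RvD6 and 73.4, 27.2, 96.8, 32.1 and 71.5 after RvD6si. Only 1 RvD6 library, replicate 9 at 63.2, reached the vehicle range, whose lowest value was 62.0. The log2 fold change for RvD6 was -1.20 ± 0.39, a ratio of 0.435 with an interval of 0.246 to 0.771 (adjusted p = 0.2, edgeR), and for RvD6si -0.83 ± 0.39 (adjusted p = 0.307). Sox17 passed the threshold for RvD6 under DESeq2 on the vehicle and RvD6 libraries alone (adjusted p = 0.0399, 3.31% of all genes called). Between the lipids the difference was 0.37 with an interval of -0.45 to 1.20. A gene on the opposite strand, Gm37587, shares 16.8% of the exonic bases of Sox17, and as the counting did not use strand, reads there were left uncounted as well.

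**Figure D3:**
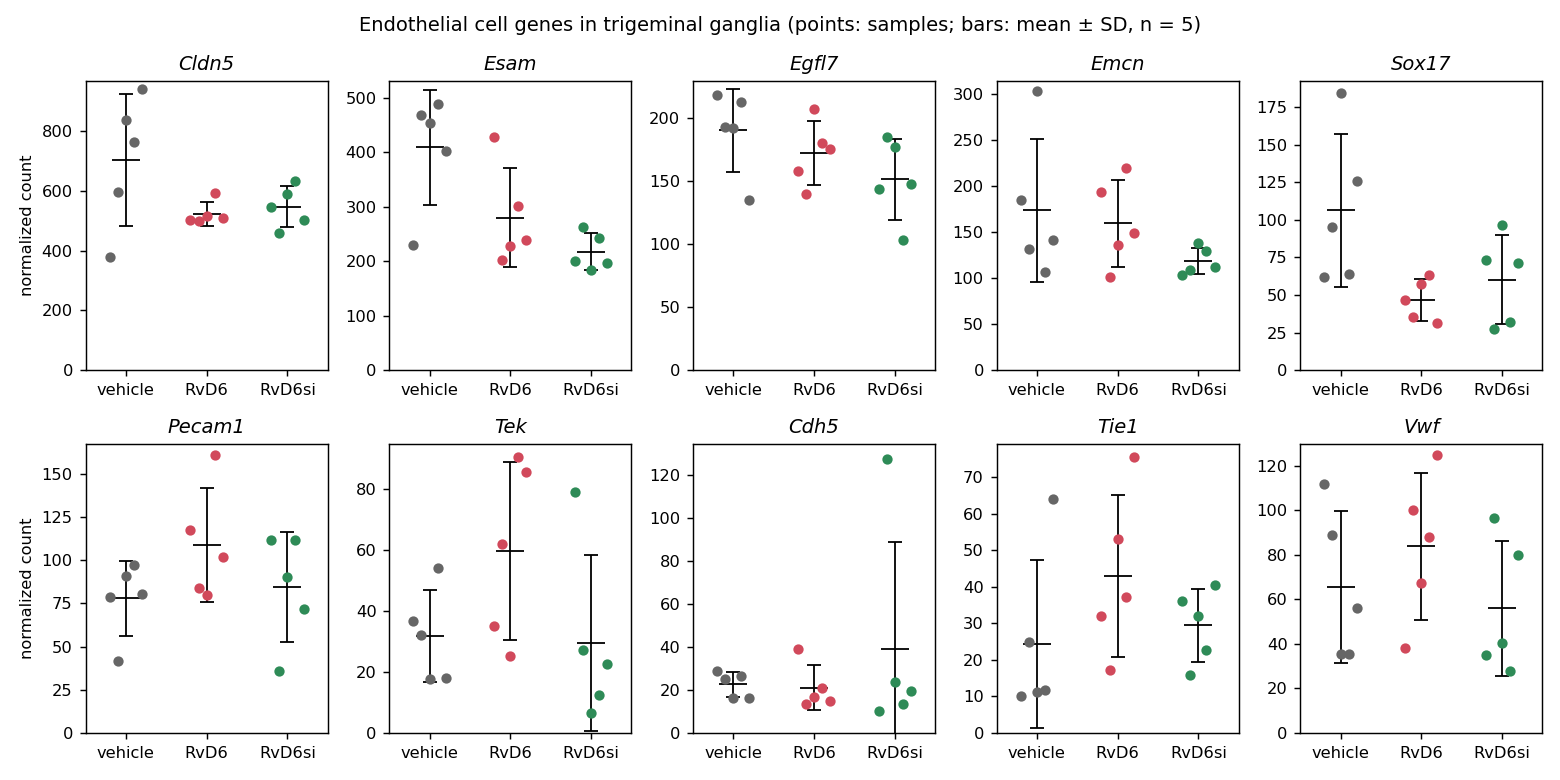
Normalized counts of the 10 genes in each library (points) with the group mean and SD (bars, n = 5), in order of level per length. For Esam 4 of the 5 vehicle libraries, at 403 to 489, lie above every RvD6si library, and for Cdh5 1 RvD6si library at 128 stands far above the rest.

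The spread of most genes exceeded what counting explains. Over the 15 libraries the coefficient of variation ran from 19% (Egfl7) to 104% (Cdh5), where counting alone gives 7.66% and 19.1%. The summed normalized count of the 10 genes was 1805 ± 306 after vehicle, 1498 ± 191 after RvD6 and 1332 ± 41.9 after RvD6si, and the groups overlapped, since vehicle replicate 1 held 1341 and the RvD6si libraries reached 1378. Cldn5 alone made up 38.2% ± 5.51 of that sum (SD, n = 15) and Esam 19.1%.

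Levels of the 10 genes were little correlated across libraries. Over the 45 pairs, the mean Pearson r of log2 CPM (counts scaled to the library's total) was 0.03, from -0.57 (Pecam1 with Cdh5) to 0.62 (Cldn5 with Sox17), and 2 pairs exceeded 0.5. The mean over pairs of all genes tested was 0.00135. With group means removed, the mean over the 45 pairs was -0.01. These values are descriptions over 15 libraries that share their normalization, and counting error alone lowers r for the low genes. The gene closest to the mean standardized level of the 10 was Rtraf (r = 0.872), and Gm5586 (r = 0.872), D330041H03Rik, Med29, Gm6807, Hmgn3 and Hmgn1 (r = 0.817) were also among the closest. They were picked for the highest r among all tested genes outside the lists, so their values cannot be compared with those of the 10. For the 10, the r with that mean was greatest for Emcn (0.666) and Esam (0.657) and least for Cdh5 (0.04). Each of the 10 is itself part of that mean, which raises its r. With group means removed the closest were Baiap2 (r = 0.878), Kit (r = 0.849), Gorab, Mlx, Meox2, 4921524J17Rik, Gm11675 and Hacl1.

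**Figure D4:**
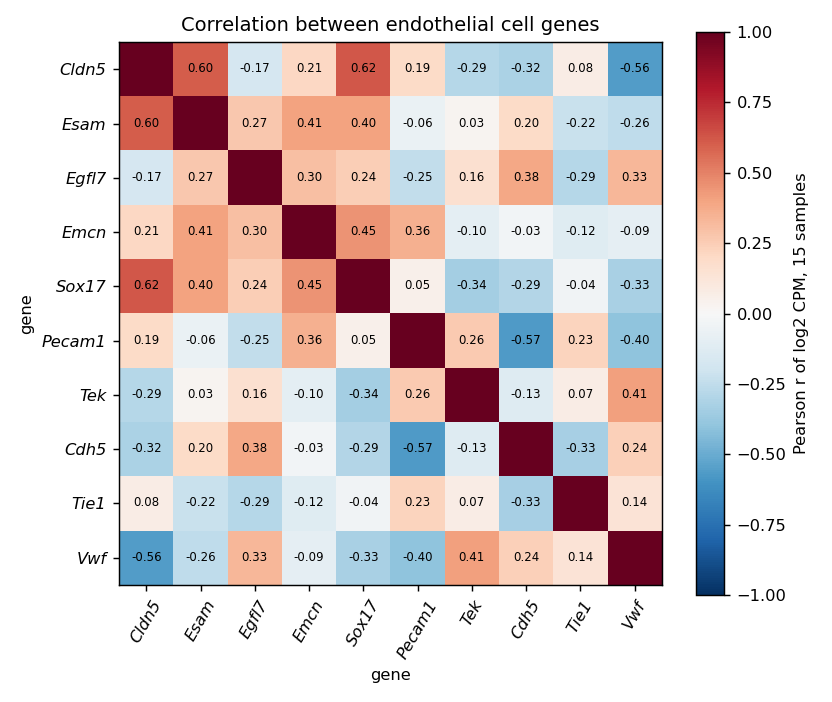
Pearson r between each pair of the 10 genes, from log2 CPM in 15 libraries, in order of level per length (red positive, blue negative). Cldn5, Esam, Emcn and Sox17 are positive with each other, at up to 0.62, whereas the lowest values are those of Pecam1 with Cdh5 (-0.57) and Cldn5 with Vwf (-0.56).

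Other genes used as endothelial markers were compared to see whether the 10 stood for them. Of 24 further pan-endothelial genes, 22 were tested and edgeR called 0 in each comparison. For RvD6 against vehicle their median log2 fold change was 0.36, and 7 were higher at an unadjusted p below 0.05 and 0 lower, with 0 calls by DESeq2, where 7.63% of all genes were higher at that level. Those 7 were Fli1 (1.53), Myct1 (2.27), Eng (0.59), Kdr (0.71), Adgrf5 (0.74), Flt1 (0.43) and Adgrl4 (0.98), of which Kdr and Flt1 are receptors of vascular endothelial growth factor. The 10 genes had a median of -0.12 in the same comparison, and without RvD6 replicate 7 that median was 0.01. The median of the other endothelial genes ran from 0.22 to 0.53 when each library was left out. For RvD6si against vehicle the median of the 22 was 0.01, with 1 gene higher and 2 lower at an unadjusted p below 0.05, beside 8.69% higher and 7.3% lower over all genes. Ly6c1, a surface protein of endothelium in nerve tissue, averaged 284 normalized counts after RvD6si against 479 after vehicle, a difference of -0.76 ± 0.17 (adjusted p = 0.0506 in edgeR and 0.00186 in DESeq2). It was the 1 DESeq2 call of the 22 in that comparison, where DESeq2 called 8.13% of all genes. Between the lipids the median was -0.41, with 4 lower at an unadjusted p below 0.05 (4.64% of all genes were lower at that level and 4.18% higher). Cd93 (-1.52, adjusted p = 0.183 in edgeR) was the 1 DESeq2 call (adjusted p = 0.0271), where DESeq2 called 0.936% of all genes.

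Of 13 genes of barrier endothelium, 13 were tested and edgeR called 0 in each comparison. The glucose transporter Slc2a1 averaged 597 normalized counts after RvD6 and 887 after vehicle (-0.59 ± 0.16, adjusted p = 0.154 in edgeR and 0.0305 in DESeq2). This was the 1 DESeq2 call in the list, where DESeq2 called 1.92% of all genes. The lipid transporter Mfsd2a averaged 947 after vehicle, 758 after RvD6 and 711 after RvD6si (adjusted p = 0.335 and 0.176 in edgeR). The median of the list for RvD6 against vehicle was 0.28, with 8 of 13 estimates above 0. Tjp1, a scaffold of tight junctions, averaged 228 after RvD6 and 152 after vehicle (0.57 ± 0.23, adjusted p = 0.303 in edgeR), and Pglyrp1, which neutrophils also make, averaged 107 and 32.0 (1.72 ± 0.77, adjusted p = 0.338). At an unadjusted p below 0.05 there were 2 higher and 2 lower for RvD6, where the shares of all genes were 7.63% and 5.99%. There were 1 higher and 1 lower for RvD6si (8.69% and 7.3% of all genes), and 1 higher between the lipids (4.18% of all genes).

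**Figure D5:**
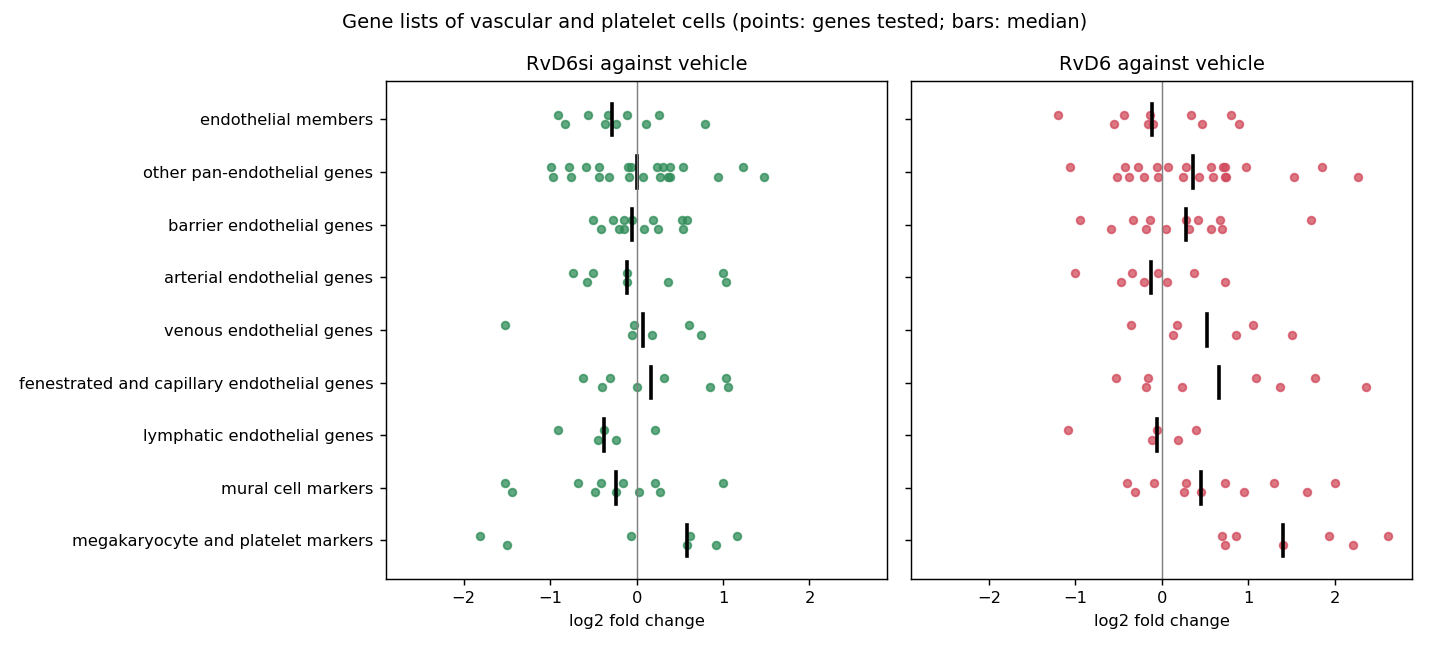
Log2 fold change of each tested gene (points) in lists of vascular and platelet genes, with the median of each list (bars), for RvD6si and RvD6 against vehicle. The 10 endothelial genes (top row) have medians of -0.29 and -0.12, and the platelet markers (bottom row) 0.58 and 1.40, of which 0.58 becomes -0.95 without RvD6si replicate 15.

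Markers of other cells were summed because some of those cells also carry members of the 10 genes. The 8 megakaryocyte and platelet markers summed to 183 to 546 normalized counts after vehicle, 574 to 1430 after RvD6 and 114 to 1578 after RvD6si, where 1578 is replicate 15. Of these markers 3 or 4 were at 0 in each of the other RvD6si libraries, 1 to 3 in each vehicle library, and at most 1 in each RvD6 library. Of the 7 tested, all had estimates above 0 for RvD6 against vehicle (median 1.40), 3 of them with an unadjusted p below 0.05, and edgeR and DESeq2 called 0. Over all genes 7.63% were higher at that level and 47.8% of estimates were below 0. The 11 bone marrow granulocyte precursor markers summed to 846 to 4359, 5252 to 17245 and 441 to 14819 in the same order. The RvD6 sums lay above all vehicle sums for both lists, as did the 7 erythroid markers, at 41616 to 76791 against 17145 to 36268, although edgeR called 0 of the 11 precursor and 0 of the 7 erythroid markers. At an unadjusted p below 0.05 all 11 and all 7 were higher, and DESeq2 called 0 and 1, where it called 1.92% of all genes. In the same comparison estimates were above 0 for Pecam1, Tie1, Tek and Vwf and below 0 for Cdh5, Cldn5, Emcn, Esam, Egfl7 and Sox17. The part of these blood cells in the estimates of the 10 genes, or of the other endothelial genes, was not tested. For RvD6si against vehicle the high sums were those of replicate 15. Without that library the median of the platelet markers went from 0.58 to -0.95, of the precursor markers from 1.06 to -1.54 and of the erythroid markers from 0.20 to -1.05, and that of the 10 genes from -0.29 to -0.33. Fibroblast markers had a median of 0.79 for RvD6 against vehicle, with 6 of 6 estimates above 0. Of these, 3 had an unadjusted p below 0.05 (7.63% of all genes were higher at that level) and 2 were DESeq2 calls (1.92% of all genes). Sensory neuron markers had a median of -0.30, with 8 of 8 below 0 and 4 lower at an unadjusted p below 0.05, where 5.99% of all genes were lower. edgeR called 0 in both lists and DESeq2 called 0 of the neuron markers. The 12 mural cell markers, of pericytes and smooth muscle, summed to 1125 to 1305 after vehicle, 1257 to 2667 after RvD6 and 1050 to 1745 after RvD6si. Of 11 tested, edgeR called 1, Acta2 of smooth muscle, which averaged 298 normalized counts after RvD6si and 817 after RvD6 (-1.45 ± 0.29, adjusted p = 0.0392), where 0.235% of all genes were called. This call was kept in 4 of 15 fits that left out 1 library, with adjusted p up to 0.112: those without vehicle replicate 5, RvD6 replicates 7 or 8, or RvD6si replicate 15. Acta2 was 1.29 ± 0.28 higher on the log2 scale in RvD6 than in vehicle (331), with no overlap between the groups (adjusted p = 0.0967 in edgeR and 0.00309 in DESeq2). The 8 skeletal muscle markers summed to 124 to 1131 after vehicle, 720 to 22637 after RvD6 and 69.9 to 232 after RvD6si. RvD6 replicates 8 and 9, at 14349 and 22637, were the highest. Between the lipids edgeR called 6 of the 8 lower (0.235% of all genes called) and DESeq2 all 8 (0.936%), with a median of -5.5. For RvD6 against vehicle edgeR called 0 and DESeq2 all 8, higher (1.92% of all genes called), with a median of 4.26.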

How the data were processed

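RNA of 15 TG (5 vehicle, 5 RvD6, 5 RvD6si) was reverse transcribed from oligo-dT by an adapted Smart-seq2 protocol from 1 ng. The authors aligned reads to GRCm38 with Rsubread and deposited raw counts per gene made by featureCounts on exons (GENCODE M22), unstranded, without reads of several genes or sites. The file header gives featureCounts 1.5.0-p1 and the submitters' processing notes Subread 1.6.5 and R 3.6.1. Gene names came from an annotation table of the same genome, which named 99.7% of identifiers.

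Counts were tested with edgeR 4.0.16 (quasi-likelihood, TMM, all 15 libraries and 3 groups, filterByExpr with a minimum count of 10 and total of 15) in R 4.3.3, with p-values adjusted over all 16567 genes and a threshold of 0.05. DESeq2 1.42.0 was an alternative, and its shares of all genes called are shares of the genes to which it gave an adjusted p. Normalized counts are counts divided by DESeq2 size factors. TPM was computed here from the counts and exonic lengths. Correlations used log2 CPM with a prior count of 2. The fits were tested on simulated data. Total counts per library, 4125962 to 9903396, limit the precision of the low genes, and counting errors quoted cover counting only.

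The 10 genes, the other lists and the rule for the genes named were chosen with earlier results of these data known. Every one of the 10 was named, with per-library values for those at an unadjusted p below 0.05, those with the 3 smallest p-values against vehicle, and those highest or lowest per length. Values of the others were added after they were seen. In the other lists of vessel genes, genes past a test or with the smallest p-values were named. Fli1 to Adgrl4, Cd93, Tjp1, Pglyrp1 and Ehd3 were named after their values were seen. For markers of blood cells, fibroblasts, sensory neurons and skeletal muscle only sums, medians and counts are given, also where genes passed a test. Lists of macrophage, glial and pituitary markers, in which DESeq2 called some genes, are not described. The labels name separate samples but give no batch, pairing or cage, so p-values measure the spread between these samples. Between libraries of the same group the chi-square per degree of freedom was 11.3 to 49.2, so none was a duplicate. Alternatives were DESeq2, fits of 2 groups, RLE scaling, other filters, removal of a gene length trend (lowess span 0.3) and leaving out each library. One gene that the rule on likeness to the 10 genes selected is not reported here.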

Additional observations from a re-analysis of the deposited data

Results flagged for a closer look

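Of 30 sets of 5 values (10 genes in 3 groups), 4 held a highest library far from the others by Dixon's criterion. Chance alone meets it in about 1 set in 20 where values are normally distributed. These are counts, and the sets of a group share their libraries, so that rate need not hold here. Cdh5 was 128 normalized counts in RvD6si replicate 12, where the next value was 23.7. Cldn5 was 592 in RvD6 replicate 9, with the next at 516. Tie1 was 64.2 in vehicle replicate 5, with the next at 24.9. Tek was 79.1 in RvD6si replicate 11, with the next at 27.2. The 4 values lie in 4 different libraries.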

How the results depend on the processing

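The count of the 10 genes called between RvD6si and vehicle was 0 in the main test and 1, Esam, under DESeq2 on all libraries (adjusted p = 0.006), DESeq2 on the groups compared (0.00229), and edgeR on genes with at least 10 counts in every library (0.0405), a filter that 8 of the 10 genes pass and under which 2.6% of all genes were called. In that comparison edgeR called 111 of 16567 genes. DESeq2 on all libraries called 920 of the 11321 genes to which it gave an adjusted p. Between RvD6 and vehicle the count was 1, Sox17, under DESeq2 on the groups compared (adjusted p = 0.0399), with 3.31% of all genes called. DESeq2 on all libraries gave no adjusted p for Cdh5 in any comparison, nor for Tie1 and Tek in RvD6si against vehicle. Leaving out each library in turn gave 0 calls among the 10 genes in every comparison. Of 16848 to 17063 genes tested, these fits called 0 (without RvD6si replicate 11) to 229 (without RvD6 replicate 9) for RvD6si against vehicle. They called 0 to 51 for RvD6 against vehicle and 2 to 156 between the lipids, both highest without RvD6si replicate 15. Esam for RvD6si against vehicle then ran from -1.07 to -0.84 (adjusted p 0.0523 to 0.181, edgeR). The medians ran from -0.42 to -0.15 (RvD6si), -0.2 to 0.01 (RvD6) and -0.45 to -0.22 (between lipids). Of 645 alternatives of single genes 628 kept direction and side of the threshold, and 13 changed direction, all with estimates inside their error. For RvD6si against vehicle these were Pecam1 with the length trend removed (-0.0365) or without vehicle replicate 2 (-0.0513), RvD6si replicate 11 (-0.00736) or 14 (-0.0145), Vwf without vehicle replicate 1 (0.0383), Tek without vehicle replicate 4 (0.17), RvD6si replicate 13 (0.148) or 14 (0.0834), and Cdh5 without RvD6si replicate 12 (-0.43). For RvD6 they were Emcn without vehicle replicate 3 (0.16) and Cdh5 without RvD6 replicate 7 (0.0299) or 10 (0.000104), and between the lipids Cdh5 without RvD6si replicate 12 (-0.33). Without 1 library these ranged for RvD6si from -0.0513 to 0.311 (Pecam1), -0.429 to 1.03 (Cdh5), -0.89 to 0.17 (Tek) and -0.537 to 0.0383 (Vwf), for RvD6 from -0.46 to 0.0299 (Cdh5) and -0.284 to 0.159 (Emcn), and between the lipids from -0.327 to 1.25 (Cdh5). The cause was not tested. No paired analysis was possible because the replicate numbers, 1 to 15, are not shared between groups.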

Other observations

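Genes that mark kinds of vessels were also counted, and edgeR called 0 in each of these lists in every comparison. Of 8 arterial genes tested, 1 was lower after RvD6 at an unadjusted p below 0.05, the gap junction gene Gja4 (36.8 against 73.3 normalized counts, adjusted p = 0.275, edgeR), where 5.99% of all genes were lower, and DESeq2 called 0. Of these 8, 0 had an unadjusted p below 0.05 in the other comparisons. Of 6 venous genes, the adhesion molecule Vcam1 averaged 222 after RvD6 and 106 after vehicle (adjusted p = 0.297), and Il1r1 averaged 19.4 after RvD6si and 55.4 after vehicle (adjusted p = 0.219), the 1 gene each at an unadjusted p below 0.05, with 0 DESeq2 calls, where 7.63% of all genes were higher after RvD6 and 7.3% lower after RvD6si. Between the lipids 1 was lower at that level, again Vcam1, beside 4.64% of all genes. Of 8 fenestrated and capillary genes, the fatty acid carrier Cd36 averaged 144 after RvD6 and 27.6 after vehicle (2.36 ± 0.66 on the log2 scale, adjusted p = 0.16 in edgeR and 0.019 in DESeq2, which called 1.92% of all genes). Cd36 is also found on platelets and macrophages. In the same list Rgcc averaged 645 after RvD6si and 989 after vehicle (-0.62 ± 0.17, adjusted p = 0.0845 in edgeR and 0.0121 in DESeq2, which called 8.13% of all genes). Ehd3 averaged 1581 after RvD6si, 1262 after vehicle and 1126 after RvD6, with no overlap between the lipids (0.50 ± 0.14, adjusted p = 0.224 in edgeR). At an unadjusted p below 0.05 this list had 2 higher for RvD6, 1 higher and 1 lower for RvD6si, where 8.69% and 7.3% of all genes were, and 1 higher and 3 lower between the lipids, where 4.18% and 4.64% were. Of 5 lymphatic genes tested, 0 had an unadjusted p below 0.05 in edgeR in any comparison and DESeq2 called 0.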
